A study of Homo sapiens with 6 samples.

Results

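Cassette exons of the ADAM metalloproteinase genes were examined in MDA231-BrM2a cells, a brain metastatic derivative of the human breast cancer line MDA-MB-231, with and without the RNA-binding protein RBM47. A cassette exon is an exon that a transcript either includes between its flanking exons or skips, and each row of the table is 1 such event. The members were chosen by gene symbol, as all rows named ADAM15, ADAM9, ADAM10, ADAM17, ADAM12, ADAM8 or ADAM19, and 25 of 24725 events had such a name. They fell in 5 of the 7 genes, with 16 events in ADAM15, 4 in ADAM10, 3 in ADAM8 and 1 each in ADAM9 and ADAM17. No row named ADAM12 or ADAM19 was analysed here. ADAM15 entered the gene list because an event of it had the lowest RBM47-minus-control difference of all events past the study criteria, so its values between the groups are given as a description. Counts of ADAM15 events past a threshold are given beside the share of all events past it, and support nothing. They recur only under other settings, without that share, near the end.

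Triplicate RNA-seq libraries came from Control cells, a non-clonal population with the empty retroviral vector pRetroX-Tight-Pur, and from RBM47 cells, a single clone (wt#10) carrying the same vector with Flag-tagged wild-type RBM47 under a doxycycline-inducible promoter. All 6 cultures, Control as well, received doxycycline at 10 ng/ml for 3 days. RBM47 expression and clonal origin cannot be told apart, since the RBM47 cells are 1 clone and the Control cells are not. The labels do not say whether the 3 samples of a group were separate cultures, so spreads between them may be technical. Of the cell type markers looked up, the mesenchymal VIM, FN1 and ZEB1 had 7, 9 and 5 events, CD44 had 16, and the epithelial keratin KRT8 had 1. The highest reads of an event were 294087 in VIM, 3982 in FN1, 335 in ZEB1, 15287 in CD44 and 9557 in KRT8. KRT18, CDH1, EPCAM, CDH2, PTPRC, PECAM1 and RBM47 itself had 0 events, so the transgene could not be checked from exon inclusion. The 24725 events held 0.910 times as many reads in RBM47 as in Control cells, and the depth of single samples is unknown. RBM47 replicate 2 stood apart: where the mean rate lay between 0.1 and 0.9, 14.8% of its rates were exactly 0 or 1, while the other 5 samples had 6.10% to 7.63%.

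ADAM proteins are membrane-anchored proteases with an extracellular metalloproteinase and disintegrin domain, a transmembrane segment and a cytoplasmic tail. Several of them release growth factors, cytokine receptors, Notch and adhesion molecules from the cell surface, a cleavage known as ectodomain shedding. ADAM15 carries an integrin-binding sequence in its disintegrin domain, and its tail is rich in proline and binds SH3 domains of Src-family kinases and of adaptor proteins. Transcripts of ADAM15 are known to differ in which small exons of the tail they hold.

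The 16 ADAM15 events used 8 pairs of outer ends (Start and End) on chromosome 1. In 4 of these pairs several events shared the same ends, 12 events in all, and only 13 of the 25 ADAM events had ends of their own. The table names no genome build. In the GENCODE annotation of GRCh37 each of the 8 pairs had the same span as a pair of exons of 1 ADAM15 transcript, and each matched start lay 1733377 bases above the table's start, so the table's coordinates are not GRCh37 positions and are given as in the table. The U-D span, 1606 bases, also matched another exon pair of the gene at a distance of 1725234, which was not used because the other 7 pairs shared the first distance. GRCh37 positions of exons below come from this match by gene and span. The plus-strand exons at the tail are called U (70 bases, chr1:155033239-155033308), A (72 bases, chr1:155033894-155033965, or 75 bases from 155033891), B (71 bases, chr1:155034052-155034122), C (72 bases, chr1:155034380-155034451, or 214 bases to 155034593) and D (125 bases, chr1:155034721-155034845).

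**Figure D1:**
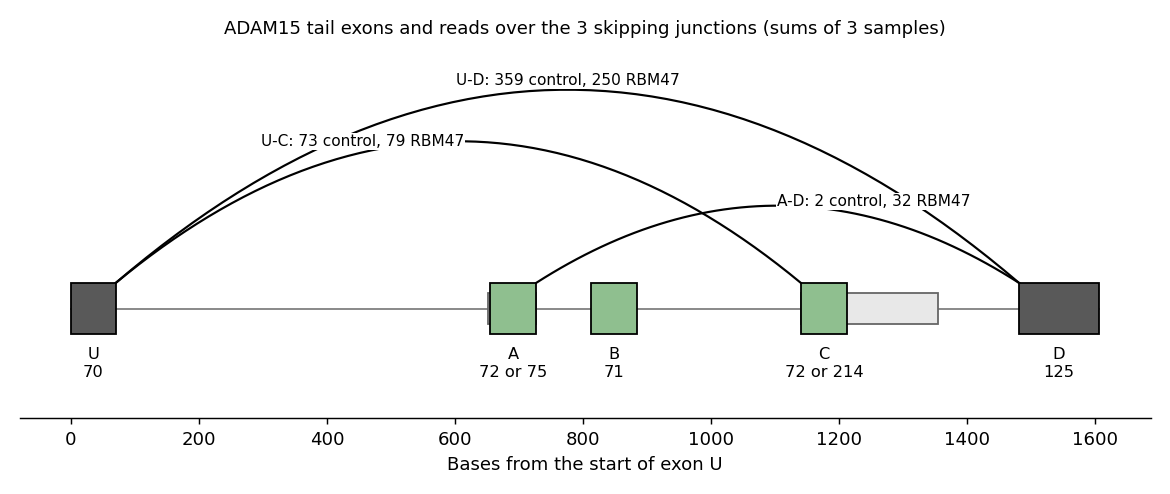
Exons U, A, B, C and D of ADAM15 to scale, with the horizontal axis in bases from the start of exon U and the length in bases under each name. Light boxes show the longer forms of A and C, and arcs show the 3 junctions that skip exons, with their reads summed over 3 samples: 359 in Control and 250 in RBM47 cells for U-D, 73 and 79 for U-C, and 2 and 32 for A-D.

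The sequences of exons A, B and C are shown because 9 of the 16 ADAM15 events concern the inclusion of exons between U and D. They are GRCh37 plus-strand bases, 5′ to 3′. Capitals mark proline codons (CCN) in the reading frame of annotated transcripts that include U. Exon B has no annotated coding use and is left in lower case. The last sequence is the acceptor of exon A (chr1:155033871-155033900), with the neighbouring AG pairs that give its 2 forms in capitals.
Exon A, 75-base form: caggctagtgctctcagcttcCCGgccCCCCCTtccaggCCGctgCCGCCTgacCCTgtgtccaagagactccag
Exon A, 72-base form: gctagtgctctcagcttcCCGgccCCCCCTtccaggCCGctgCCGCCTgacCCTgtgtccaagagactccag
Exon B, 71 bases: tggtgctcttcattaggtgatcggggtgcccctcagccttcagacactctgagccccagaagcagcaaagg
Exon C, 72-base form: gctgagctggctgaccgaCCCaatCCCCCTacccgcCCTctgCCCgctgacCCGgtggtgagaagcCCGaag
Acceptor of exon A: tgcccctcctgccctctcAGcAGgctagtg

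Exons A and C, at 72 bases, each held 7 proline codons among 24. Of 1878 coding exon segments of 72 bases in the annotation (chromosome 8 left out), 17 (0.905%) held at least 7 CCN codons in frame on their own strand, and the median was 1. Both forms of A and the shorter form of C have lengths that are multiples of 3 and keep the frame, whereas B at 71 bases and the longer C at 214 bases do not.

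Inclusion rates were deposited per sample as a fraction from 0 to 1. In the study's scheme a rate is the reads over both junctions of the included exon, divided by these reads plus the skipping junction's reads counted 2 times. The deposited rates did not always follow from the deposited read totals under this scheme, also in rows with aligned rates, as described below. Of the 9 tail events, 5 had rates that averaged to the group means printed in their row. In the other 4 (UD-3, UC-1, UC-2 and AD-3) they did not, and rates were re-matched to the row through the printed RBM47 mean alone. The Control means printed in these 4 rows, 0.0979, 0.785, 0.846 and 1, were those of the rates standing in the row and not those of the re-matched rates, 0.0390, 0.323, 0.284 and 0.867. Taken as printed, the UC means would be lower in RBM47 cells, the opposite of the re-matched rates. Over the 253 events of the table matched in this way, the Control share from read totals correlated with the re-matched Control mean at r = 0.968 and with the printed one at r = 0.0323, a description across events that are not independent. For all 4, the nearest aligned row above or below the place of the re-matched rates was an ADAM15 row, a position the matching had not used. Other misaligned rows may lie between them. The direction of the difference in the read totals, also unused, was the same as that of the rates in all 9 tail events. Events with the same flanks share skipping reads, so these are not 9 separate agreements. Among events past the study criteria the directions were the same in all 253 matched by the RBM47 mean. They were also the same in all 76 aligned and all 19 matched by both means. The shared direction is thus no separate support for the 4 re-matched events.

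The U-D events, called UD-1 to UD-4 by number of reads, have U and D as flanking exons (chromosome 1, 153299862 to 153301468 in the table). All 4 share the same skipping reads, 359 for Control and 250 for RBM47, and are not independent. UD-2 was included at 0.160, 0.20 and 0.190 in Control replicates 1 to 3 and at 0.365, 0.40 and 0.360 in RBM47 replicates 1 to 3. Every RBM47 sample lay above every Control sample, and the means were 0.183 ± 0.0209 and 0.375 ± 0.0217 (SD, n = 3 each), a difference of 0.192. UD-1 had Control rates of 0.111, 0.134 and 0.132 and RBM47 rates of 0.222, 0.212 and 0.202, 0.0860 higher on average in RBM47 cells. It had more including reads than UD-2, 385 against 370 in Control and 682 against 663 in RBM47 cells. With the same skipping reads, the scheme would give UD-1 the higher rates, but its rates were lower, and why was not tested.

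UD-3 and UD-4 had the lowest Control rates of the tail events, although 27.5% and 25.7% of their Control read totals were including reads. UD-4 had Control rates of 0, 0.0490 and 0.0336 and RBM47 rates of 0.195, 0.245 and 0.195. Control averaged 0.0275 ± 0.0250 and RBM47 0.212 ± 0.0287 (SD, n = 3 each), again with no overlap. UD-3, with re-matched rates, had 0.0330, 0.0423 and 0.0417 in Control and 0.244, 0.312 and 0.226 in RBM47 cells, a difference of 0.222. The annotation puts 9 exons or exon forms between U and D, and the span does not say which of them an event stands for.

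UC-1 and UC-2 have U and C as flanking exons (chromosome 1, 153299862 to 153301074 in the table), so they measure inclusion between U and C in transcripts that hold C. By rates these were the largest increases among the ADAM events, while by read totals with including reads halved UD-3 and UD-4 increased more. By read totals as deposited every U-D event increased more, by 0.214 to 0.330 against 0.170 for UC-1 and 0.177 for UC-2. UC-1 was included at 0.267, 0.333 and 0.370 in Control and at 0.667, 0.697 and 0.702 in RBM47 cells, a difference of 0.365 with no overlap. UC-2 had Control rates of 0.154, 0.346 and 0.352 and RBM47 rates of 0.638, 0.661 and 0.684, a difference of 0.377. Control replicate 1 was the lowest sample in both. Including reads rose from 176 to 561 for UC-1 and from 164 to 522 for UC-2, while the skipping reads they share were 73 and 79. Both events had re-matched rates, and no event with these ends had aligned rates to set beside them.

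AD-1, AD-2 and AD-3 have the 72-base exon A and D as flanking exons (chromosome 1, 153300517 to 153301468 in the table), so they measure inclusion between A and D in transcripts that already hold A. The annotation puts exon B and the 2 forms of exon C between them. All 3 events had lower inclusion in RBM47 cells, the opposite direction to the U-D and U-C events. AD-1 was included at 1, 1 and 0.886 in Control and at 0.820, 0.741 and 0.836 in RBM47 cells, and fell by 0.163 on average. AD-2 had Control rates of 1, 1 and 0.926 and RBM47 rates of 0.875, 0.828 and 0.892, with a mean difference of -0.110. In neither event did the groups overlap.

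AD-3 had the lowest difference of the events past the study criteria, -0.783, with Control rates of 1, 1 and 0.60 and RBM47 rates of 0.0833, 0 and 0.167. Control averaged 0.867 ± 0.231 and RBM47 0.0833 ± 0.0833 (SD, n = 3 each). The 3 A-D events share their skipping reads, 2 for Control and 32 for RBM47. With 2 skipping reads over 3 Control samples, at least 1 Control sample had none. The rates standing in the AD-3 row as deposited were 1, 1 and 1 in Control, although the row counts 2 skipping reads there, and 0.752, 0.542 and 0.407 in RBM47 cells, with a mean of 0.567 against the 0.0833 printed in that row. The re-matched rates placed Control replicate 3 alone below 1, as in AD-1 and AD-2.

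**Figure D2:**
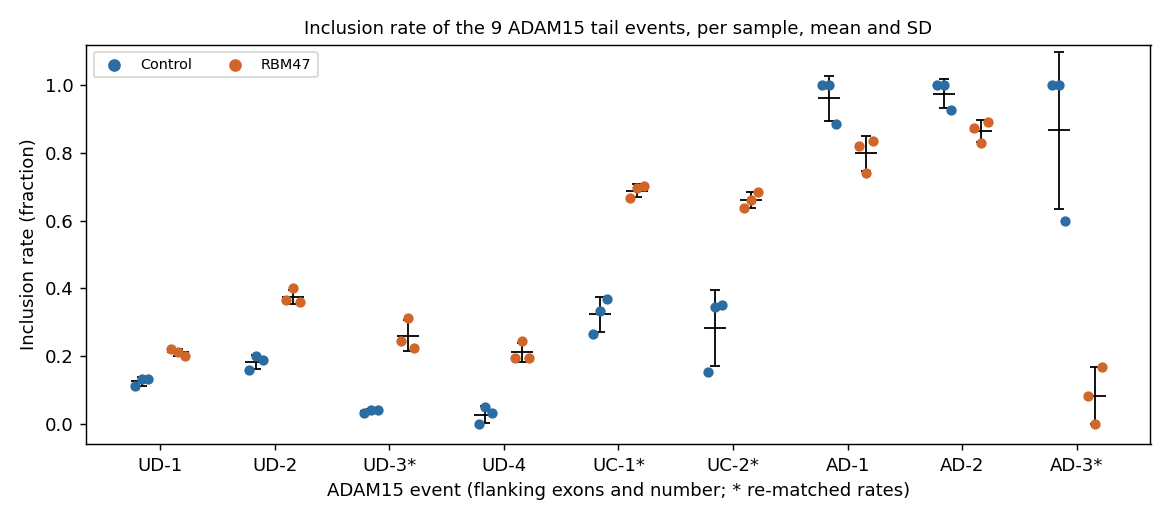
Inclusion rate (fraction, vertical axis) of the 9 ADAM15 tail events, with 3 Control (blue) and 3 RBM47 (orange) samples as points and the mean ± SD in black; an asterisk marks re-matched rates. The 6 events with U as a flank lie higher in RBM47 cells and the 3 with A and D as flanks lie lower, without overlap in any of the 9, beside 9.93% of all events without overlap. Events with the same flanks share skipping reads and are not independent.

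Read totals put the 9 tail events in another order than the rates. AD-3 had 141 including reads for Control and 302 for RBM47 beside its 2 and 32 skipping reads. The including share was 98.6% of 143 in Control (exact 95% interval 95.0% to 99.8%) and 90.4% of 334 in RBM47 cells (86.7% to 93.4%). With including reads halved, since an included exon has a pair of junctions, the AD-3 difference was -0.147, and it stood at place 181 of the 196 decreases past the study criteria, against place 1 by rates. The halved RBM47 share was 0.825, far from the mean rate of 0.0833, so the size of the AD-3 decrease differed between the measures while its direction did not. The halved differences of UC-1 and UC-2 were 0.234 and 0.239, and those of UD-1 to UD-4 ran from 0.228 to 0.274. Halving the including totals is the same arithmetic as the scheme for a rate, yet the totals did not give the rates, and why they differ was not tested. Intervals cover counting error only.

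**Figure D3:**
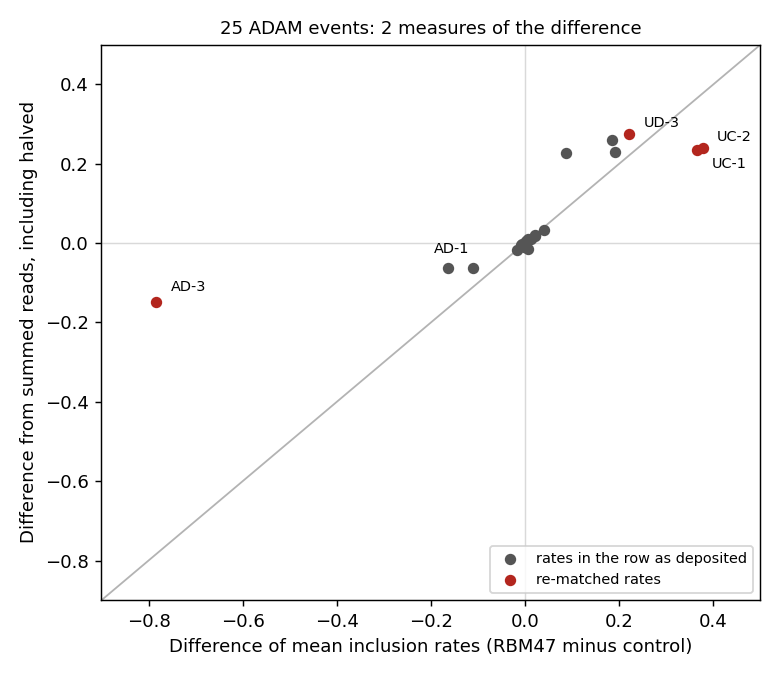
Difference of mean inclusion rates (horizontal axis, RBM47 minus Control) against the difference from read totals with including reads halved (vertical axis) for the 25 ADAM events, with re-matched events in red and the line of equal values in grey. AD-3 lies at -0.783 by rates and -0.147 by totals, while UD-3 lies at 0.222 and 0.274.

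The study criteria were a Fisher's exact p of at most 0.05 on the read totals, a difference of at least 0.2 and at least 10 reads. Of the 25 ADAM events, 3 were higher (UD-3, UC-1 and UC-2) and 1 lower (AD-3) in RBM47 cells, beside 0.615% higher and 0.793% lower of 24708 events with rates. By limma on the rates, which sees the spread between samples, 9 ADAM events could be tested, and the count was again 3 higher and 1 lower, the same events (Benjamini-Hochberg adjusted p below 0.05, difference 0.2 or more), beside 0.75% and 0.783% of 6000 events. All 4 had rates re-matched by the RBM47 mean alone, as did 253 of the 348 events of the whole table that met the study criteria, and 91 of the 92 that limma called. All 253 events matched in this way met the study criteria, against 76 of the 23333 aligned events. The study reported fewer exons past its criteria in both directions than were counted here, and why was not tested. Without Control replicate 1, Control replicate 2, RBM47 replicate 1 or RBM47 replicate 2 the limma count of lower events was 0, and without RBM47 replicate 2 that of higher events was 1. Groups were fully apart in 9 of the 25 events, all at the ADAM15 tail, against 9.93% of all events, and 8 of the 25 differed by at least 0.1, against 8.79%. Nothing is read from these counts: ADAM15 was listed for its difference in this contrast, so they are no test of it, and its events share reads.

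The other 7 ADAM15 events differed by -0.0165 to 0.0207, and the groups overlapped in all of them. The events flanked by the exon before U and by D (TD-1) or A (TA-1), whose spans hold U, were included at 0.995 or above in every sample, from 1804 and 1357 reads. Event N2-1 (chromosome 1, 153291770 to 153293087 in the table), whose span matched a 77-base exon, had rates of 0.972, 0.95 and 0.971 in Control and 0.941, 0.938 and 0.965 in RBM47 cells, with overlapping groups. The 3 events between 153293413 and 153295099 (M-1 to M-3) share 25 and 11 skipping reads and had rates from 0.944 to 0.994. Event N1-1, the most upstream, matched a 29-base exon and had rates from 0 to 0.0199. Its including share of the read totals was higher, 9.08% in Control (exact 95% interval 6.87% to 11.7%) and 6.46% in RBM47 cells (4.37% to 9.14%). It was the only ADAM event with a difference other than 0 whose sign differed between rates (0.00574) and halved read totals (-0.0142).

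ADAM10, the main protease that sheds Notch receptors, and ADAM17, which releases tumour necrosis factor and ligands of the EGF receptor, had exons that were either included or skipped in nearly every transcript. The ADAM17 event (chromosome 2, 9546962 to 9550565 in the table) had a rate of 1 in all 6 samples, from 1391 reads with 0 skipping. Of the 4 ADAM10 events on chromosome 15, 3 had rates of 0.981 or above in every sample. The fourth (56744587 to 56758772 in the table) had a rate of 0 in all 6, with 334 skipping reads for Control and 147 for RBM47. Its read totals still held 2 including reads for Control and 1 for RBM47. A count of 0 allows up to 3 reads, the one-sided 95% limit, so the ADAM17 skipping share could be up to 0.374% of 802 Control reads and 0.509% of 589 RBM47 reads.

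ADAM8, a protease of inflammatory and invasive cells, had 3 events on chromosome 10 with partial inclusion. The event from 134937652 to 134940361 had Control rates of 0.941, 0.917 and 0.895 and RBM47 rates of 0.990, 0.975 and 0.908. Its difference of 0.0398 was the largest outside ADAM15, the groups overlapped through RBM47 replicate 3, and the unadjusted Fisher's exact p was 0.157. The event from 134925910 to 134930910 had rates of 0.916, 0.914 and 0.862 in Control and 0.907, 0.841 and 0.917 in RBM47 cells, a difference of -0.00909 (limma adjusted p = 0.944). It was the only one of the 9 events outside ADAM15 that limma could test. The remaining ADAM8 event was included at 0.978 or above in every sample.

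ADAM9, which like ADAM15 binds SH3 domain proteins through its tail, had 1 event (chromosome 8, 39059316 to 39066863 in the table). Its rates were 0.908, 0.944 and 0.894 in Control and 0.90, 0.905 and 0.936 in RBM47 cells, a difference of -0.00176 with overlapping groups. None of the 9 events outside ADAM15 met the study criteria in either direction, beside 0.615% higher and 0.793% lower of all events. At such shares 9 events are too few to read anything from this count. Their median difference was 0, as was that of all events.

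**Figure D4:**
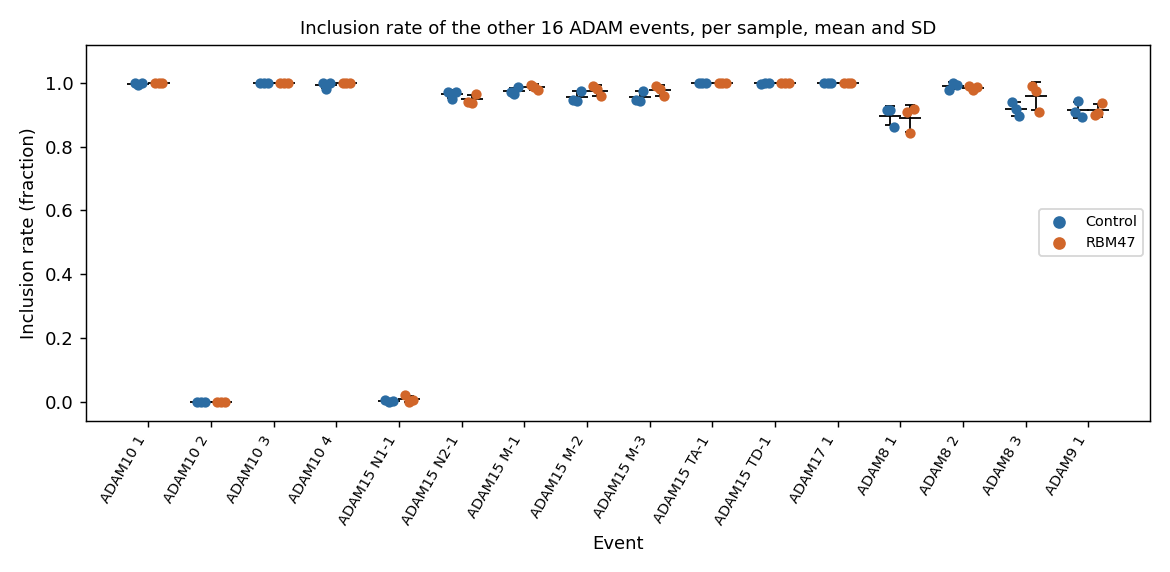
Inclusion rate (fraction, vertical axis) of the 16 ADAM events outside the ADAM15 tail, with 3 Control (blue) and 3 RBM47 (orange) samples as points and the mean ± SD in black. All rates lie at or above 0.841 except those of ADAM10 event 2 and ADAM15 N1-1, which lie at or near 0, and the groups overlap or are equal in each event.

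The reads of an event, including plus skipping, depend on how much of that transcript region was sequenced. They also rise with inclusion, since an included exon is read over a pair of junctions and a skip over a single one. Over 20148 events with at least 100 Control reads, the ratio of RBM47 to Control reads had a median of 0.858 and quartiles of 0.658 and 1.05. ADAM9 counted 1240 reads for Control and 333 for RBM47, a ratio of 0.269, and 1.36% of these events had a ratio as low. The 4 ADAM10 events had ratios of 0.393 to 0.588, ADAM17 had 0.734, and the 3 ADAM8 events had 0.958 to 0.996. In ADAM15 the 5 events upstream of the tail had ratios from 0.769 to 0.832, while TD-1 had 0.974, TA-1 had 1.34, the U-D events 1.23 to 1.28, and the A-D and U-C events 2.34 to 2.57. In the tail events, where inclusion differed, the ratio thus mixes inclusion with the amount of transcript. The U-C and A-D totals also depend on how many transcripts hold C or A. All totals are summed over samples, so no spread and no test can be given, and fewer transcripts per cell cannot be told apart from fewer cells with the transcript.

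**Figure D5:**
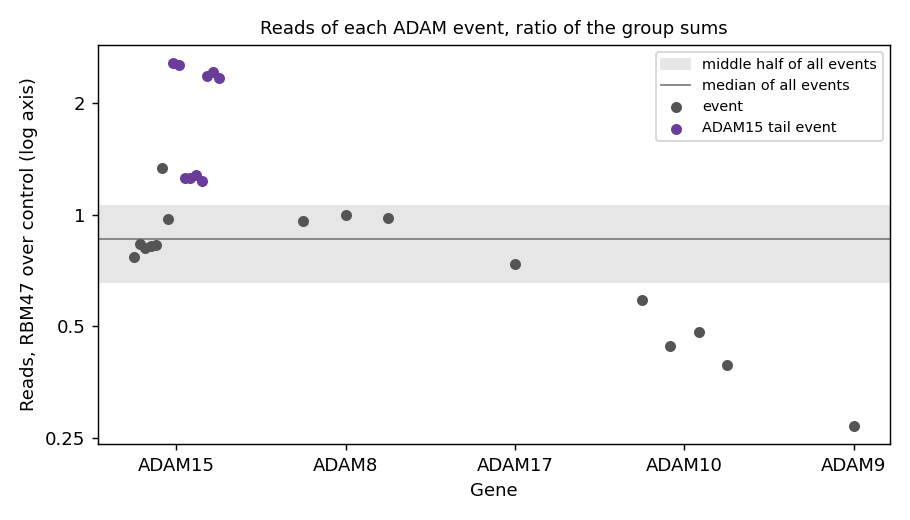
Ratio of RBM47 to Control reads (log axis) of the 25 ADAM events by gene, from sums over 3 samples, with ADAM15 tail events in purple and the median and the range between the quartiles of all events in grey. ADAM9 at 0.269 and ADAM10 at 0.393 to 0.588 lie under the grey band, and the ADAM15 tail events lie above it. An included exon is read over a pair of junctions, so the ratio also rises with inclusion.

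Genes tied to ADAM function were described from 4 lists, which held 192 genes, 85 of them with events. The rates of the CD44, CD46, SORBS2 and decreasing FLNA events were also re-matched by the RBM47 mean alone. Of 311 such events with rates, 3 were higher and 2 lower in RBM47 cells under the study criteria, beside 0.615% and 0.793% of all events, and limma called 1 higher and 2 lower of 65, beside 0.75% and 0.783%. The counts under the study criteria are near the shares over all events, the limma counts are of 1 or 2 events, and the events named next are single events and no result about a list. The median difference was 0. None of the 23 events of other metalloproteinases and their inhibitors met the criteria; the event with most reads, in the inhibitor TIMP1 (8282 reads), was included at 0.95 ± 0.00475 in Control and 0.935 ± 0.0206 in RBM47 cells (SD, n = 3 each, unadjusted Fisher's exact p = 0.0587).

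Among 93 events of ADAM substrates 1 rose and 1 fell under the study criteria, beside 0.615% and 0.793% of all events. In CD44, the hyaluronan receptor shed by ADAM10 and ADAM17, an event on chromosome 11 (35167957 to 35189571 in the table) rose by 0.392, with means of 0.342 ± 0.0522 and 0.734 ± 0.0839 (SD, n = 3 in both groups) and a limma adjusted p of 0.00788. Its rates were 0.355, 0.284 and 0.387 in Control and 0.731, 0.820 and 0.652 in RBM47 cells, without overlap. In CD46, a complement regulator, an event on chromosome 1 (206025586 to 206035480) had rates of 0.487, 0.539 and 0.619 in Control and 0.296, 0.330 and 0.316 in RBM47 cells, and fell by 0.234 (limma adjusted p = 0.0131). APLP2, a relative of the amyloid precursor protein, had the event with most reads (21758) and a difference of -0.00949 (limma adjusted p = 0.908).

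Among 104 events of proteins that bind ADAM tails, or their relatives, limma could test 17 and called 1 lower, beside 0.783% of the 6000 events it tested. The same event was the 1 of the 104 that fell under the study criteria, beside 0.793% of all events. It was in FLNA, the actin crosslinker filamin A, on chromosome X (153236386 to 153239184 in the table), at 0.754, 0.768 and 0.756 in Control and 0.523, 0.536 and 0.525 in RBM47 cells, a difference of -0.231 (limma adjusted p = 0.000520). Another FLNA event, with the most reads of the list (28927), differed by -0.00365. In SORBS2, an SH3 adaptor, an event was 0.400 higher in RBM47 cells on 77 reads. It was the 1 event of this list higher under the study criteria, beside 0.615% of all events, with a limma adjusted p of 0.424. Of 94 events of regulators of ADAM10 and ADAM17, 1 met the study criteria, beside 0.615% of all events, in the proprotein convertase gene PCSK7, with a difference of 0.204 on 142 reads and a limma adjusted p of 0.552. The event with most reads of that list, in ANXA1, differed by -1.14e-05.

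The events whose rates over the 6 samples lay nearest to those of AD-3, among events of other genes with at least 100 reads, were in EPB41, NF2, MYO18A, PLOD2 and THAP5. Euclidean distances over the 6 rates ran from 0.448 in EPB41 to 0.526 in THAP5. All but THAP5 had rates re-matched by the RBM47 mean alone. EPB41 fell by 0.583 and MYO18A by 0.528 on the scale of the rates, and their read totals differed by -0.445 and -0.536, against -0.0818 in AD-3 with including reads as deposited. The order rests on 6 values an event and gives likeness of rates only.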

How the data were processed

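The data are RNA-seq of 3 Control and 3 RBM47 samples. Per the file headers, the authors deposited inclusion rates per sample and group averages as fractions, and counts of reads summed over 3 samples. Their processing notes name TopHat and do not give the build of the coordinates. For RNA-seq of the cell lines the paper names the aligner STAR and a build equal to GRCh37. It does not say whether this covers the splicing events, whose deposited coordinates are not GRCh37 positions. Columns with the authors' difference, odds ratio and p-value were not used. The ADAM genes, lists and test forms were chosen with earlier results of these data known. In 1392 rows the rates did not average to the printed means, within 3e-09; 1122 were re-matched by both means and 253 by the RBM47 mean, and 17 were left without rates.

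Fisher's exact test (two-sided, scipy 1.17.1) on read totals and limma 3.58.1 (R 4.3.3) on arcsine square root rates (variance trend over log2 reads, mean rates of 0.1 to 0.9) were run on all events, with Benjamini-Hochberg adjustment (statsmodels 0.14.6). limma was tested on simulated data. Exact intervals are Clopper-Pearson. Named were all ADAM15 events, other ADAM events differing by 0.1 or with most reads of a gene, list events past a test or with most reads, and the 5 events nearest AD-3. Alternatives left out single samples or changed thresholds, transformation, filters, matching and the replicate block.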

Additional observations from a re-analysis of the deposited data

How the results depend on the processing

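The 3 higher and 1 lower ADAM events past the study criteria became 5 and 3 at a minimum difference of 0.1, 6 and 0 from summed reads with including reads halved, 0 and 0 in rows aligned as deposited, since all 4 are re-matched, and 1 and 0 with 1 event per Start and End. With any 1 sample left out there were 2 to 4 higher and 1 to 2 lower events, with 2 lower without Control replicate 3. The 3 higher and 1 lower ADAM events called by limma became 5 and 1 with no minimum difference, and the lower count was 0 with no trend and 0 with no filter on the mean rate. Single samples left out moved the counts to 1 to 4 higher and 0 to 2 lower, with fewer samples in each fit. With the replicate number as a block the lower count was also 0 and the higher count was 3. Deviations of same-numbered samples had r of -0.0225, -0.00550 and 0.0139 across events, and the shared numbers were not taken as pairs. The 3 higher and 2 lower related-list events became 8 and 5 at a minimum difference of 0.1, 0 lower at 0.3, 1 higher when Fisher p-values were adjusted (Benjamini-Hochberg, 0.05), and 6 higher from halved summed reads; single samples left out gave 2 to 5 higher (5 without Control replicate 2 and without RBM47 replicate 2) and 1 to 3 lower (1 without Control replicate 3). Shares of all events are not given for these other settings, so nothing is read from the counts. Where no cause is given, the cause was not tested.

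Of 144 alternatives for single ADAM15 events, 124 moved the difference by no more than the larger SD, among them the 96 that left out 1 sample, 20 moved it further, and 0 reversed a called difference. All 20 took rates from summed reads. Without 1 sample AD-3 ran from -0.917 to -0.717 and UC-2 from 0.312 to 0.411. Leaving out a sample changed the Fisher criteria only through the difference, since reads are summed over samples. Depth per sample is unknown, and 2 skipping reads in Control limit the A-D events.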

Other observations

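Pairs of ADAM15 tail events differed by the same number of including reads under different flanks. UD-1 and UD-2 differed by 15 reads in Control and 19 in RBM47 cells, and so did AD-1 and AD-2. UC-1 and UC-2 differed by 12 reads in Control and 39 in RBM47 cells, and so did UD-3 and UD-4. The table does not name the exon of an event, and no exon was assigned from these values.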
